A study of Macaca mulatta with 45 samples.

Results

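Subcutaneous fat of 24 adult male rhesus monkeys was profiled on bead arrays before any experimental diet was given, with 1 array per animal. All arrays labelled as subcutaneous fat at time 0 were taken, which are 24 of the 45 arrays of the series, and the other 21 were collected after 24 months of diet. The animals were 7 to 13 years old, housed singly and fed commercial chow at this time. They were then assigned, quasi-randomly per the labels, to 3 diets, and the names used below are those later assignments. SD (4 animals) was a standard diet in which 13% of energy came from fat and sucrose made up under 5% by weight. HFS (10 animals) was a high-fat, high-sucrose diet with 42% of energy from fat and about 27% sucrose. Resv (10 animals) was the HFS diet plus the polyphenol resveratrol, with a daily 80 mg during year 1 and 480 mg afterwards. No animal had received any of these at the biopsy, so the assigned groups served as a comparison in which no diet effect could yet exist, and the main question was which genes and functions differed among untreated animals.

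White fat stores triglyceride in adipocytes. Lipoprotein lipase releases fatty acids from circulating lipoproteins for uptake, and FASN, ACLY, ACACA, ELOVL6 and SCD build, elongate and desaturate new fatty acids from citrate. Between the adipocytes lie vessels with blood, macrophages that take up lipid and dying cells, and fibroblasts and progenitors that lay down collagen. A subcutaneous biopsy can also carry skin, hair follicle or muscle from its edges. In bulk tissue, fewer cells of a type and less RNA per cell cannot be told apart.

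The arrays carry human probes, so differences were measured between arrays for the same gene. The signal of a gene also depends on its probe, the order of genes by signal is not an order of abundance, and symbols are those of the platform annotation. Values are log2 signals after background correction and quantile normalization. The arrays fell into 2 brightness sets, which no label explains and whose deposited signals also carry different numbers of decimals. Set A held 8 arrays with a median raw signal of 54.3 to 58.9998 (2 SD, 3 HFS, 3 Resv), and set B held 16 arrays at 77.8 to 97.3 (2 SD, 7 HFS, 7 Resv). Between 15091 and 17579 probes were detected per array in set A and between 14386 and 16608 in set B. Arrays correlated at r = 0.939 to 0.981 across genes within set A, 0.898 to 0.979 within set B and 0.890 to 0.969 between the sets. The set means differed by over 1 log2 unit for 441 of 10500 genes (4.2%), so spread and co-variation were measured within each set. No 2 arrays shared more than 0.476% of their probe signals, so none was a copy of another.

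The tissue label was checked against its markers. Of 17 adipocyte markers 13 were measured, and FABP4, the fatty acid carrier of adipocytes, was among the 20 brightest genes, at 14.12, 14.75 and 14.98 (lowest, median and highest) in set A and 13.80, 14.29 and 14.77 in set B. PPARG and CEBPA, the transcription factors that drive adipocyte differentiation, and the hormone gene LEP were detected on all 24 arrays. Of 12 mesothelial markers, which would mark visceral fat, 4 were measured.

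The 20 probes with the highest signals were a mixed set. Over all 24 arrays and in set B EEF1A1, the translation elongation factor, had the highest mean, 14.86 over all arrays, with an SD of 0.10 in set A and 0.11 in set B. TPT1 (mean 14.78), the haemoglobin genes HBB (14.72) and HBA2 (14.57), the actin-binding peptide gene TMSB4X (14.70), the iron store FTL (14.69), the ribosomal protein gene RPL41 (14.66) and the MHC class I light chain B2M (14.44) were also among the 20 brightest. All 20 were detected on every array. The probe annotated to PDCD7 was second over all arrays (14.85) and first in set A. The other 11 were annotated to ORC6, TCAF1, TUBA3FP, F2R, XPNPEP3, ZNF674, FARSB, ANXA2P2, LAIR1, RRP7BP and the adipocyte gene FABP4 given above. Of the 10 brightest genes of each set 7 were shared. These genes sit near the top of the scale, and HBB spread over 14.17 to 15.03 in set B.

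Spread was summarised for each gene as the SD over the arrays of a set. The median SD over all genes was 0.32 in set A and 0.35 in set B. By definition the upper 5% held 525 genes in each set (5% of 10500), with lowest SDs inside of 0.774 in set A and 0.862 in set B and highest SDs outside of 0.773 and 0.861. Both tops held 259 genes, 2.47% of all genes and 49.3% of each top. Leaving out 1 array at a time kept the shared number between 245 and 261. The 2 sets held different animals. Of the 259 genes 145 (56.0%) were undetected on at least 1 array, against 36.2% of all genes.

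**Figure D1:**
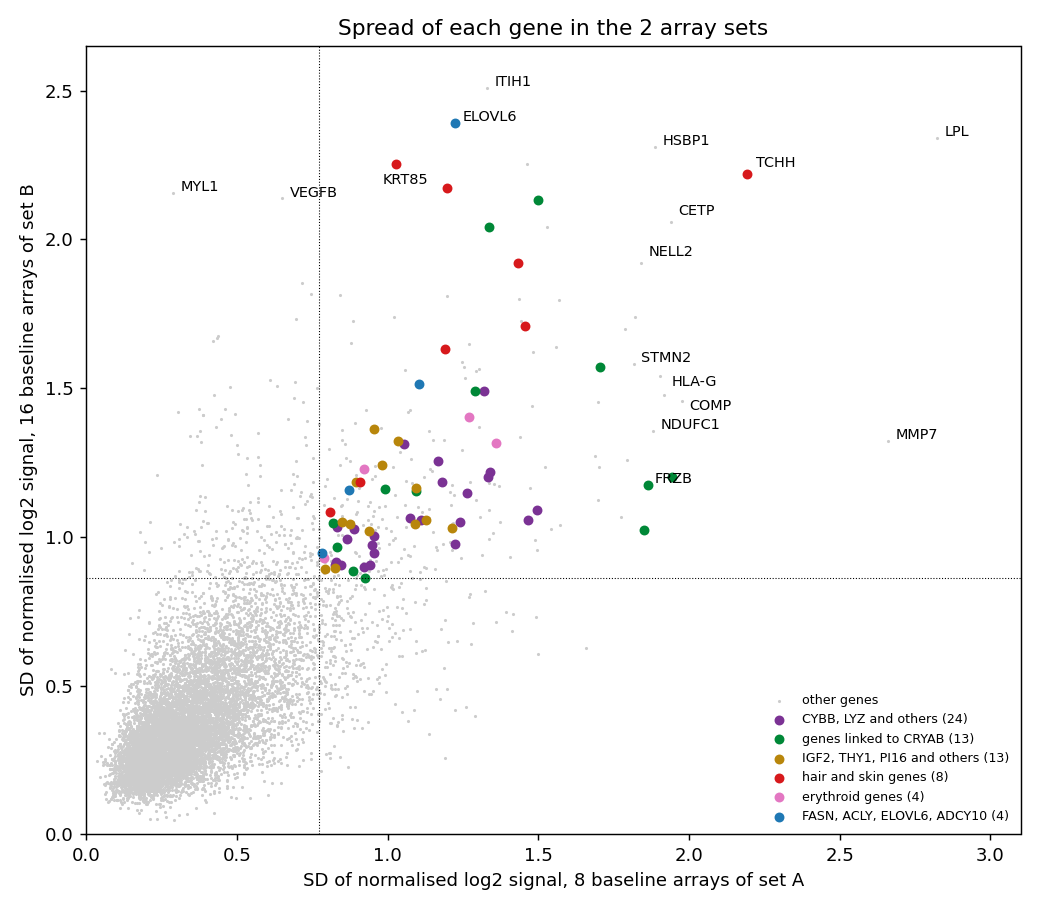
Standard deviation of log2 signal over the 8 arrays of set A (x axis) and the 16 arrays of set B (y axis) for 10500 genes, grey for single genes and coloured for genes of 6 co-varying groups, with dotted lines at the edge of the upper 5%. LPL lies far out on both axes, while MMP7 is far out in set A and MYL1 in set B.

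LPL, the lipoprotein lipase gene, had the largest SD of all genes in set A and the third in set B. Its level was 5.11, 12.60 and 13.81 (lowest, median and highest) in set A and 4.78, 11.72 and 12.84 in set B, with SDs of 2.82 and 2.34. The spread came from 3 arrays, HFS replicate 9 at 4.78, Resv replicate 2 at 5.11 and Resv replicate 4 at 5.77, and the other 21 arrays lay at 10.39 or above. HFS replicate 9 was the single array on which LPL was not detected. FABP4 did not share this pattern and had an SD of 0.32 in set A and 0.25 in set B. It sits near the top of the scale, so its small SD is a weak contrast. Among the 259 genes in the upper 5% of both sets H19 was most like LPL, at r = 0.64 (n = 8) and 0.44 (n = 16). Genes outside these 259 were not searched.

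Among the 25 genes with the largest spread in both sets, 8 had a gap of over 2 log2 units with no array inside it, and 7 of these had at least 3 arrays on each side. HSBP1, a heat shock factor binding protein gene, was at or below 5.40 on 14 arrays and at or above 8.92 on 10, and both levels occurred in both sets. Its probe was high in 7 of 10 HFS, 1 of 10 Resv and 2 of 4 SD arrays. NDUFC1, a subunit of respiratory complex I, was at or below 4.43 and undetected on 15 arrays, and between 6.60 and 8.45 on 9.

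APH1B, a gamma-secretase subunit gene, was at or below 4.67 and undetected on 6 arrays and at or above 7.53 on 18. EEF2K, the kinase of elongation factor 2, lay at or below 4.77 on 3 arrays (SD replicate 2, Resv replicates 4 and 8) and at or above 7.66 on 21. C1orf115 lay at or below 6.46 on 5 arrays and at or above 8.51 on 19. In each of these the low arrays came from both brightness sets and from at least 2 of the 3 later diets. A second APH1B probe stayed near the floor on all arrays, at 4.47 to 5.15, and correlated with the first at 0.01 in set A and 0.33 in set B. LPL, HSBP1, NDUFC1, EEF2K and C1orf115 had 1 kept probe each, and whether monkey sequence under a probe sets these levels was not tested.

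The other 17 of the 25 genes had no gap over 2 log2 units, although that of SRP72 was 2.00 and those of LGALS7B, STMN2 and CETP 1.88, 1.87 and 1.81, with 1 or 2 arrays above each of the last 3. CETP, the plasma cholesteryl ester transfer protein, was 5.70, 6.73 and 10.99 in set A and 5.88, 9.65 and 13.06 in set B. A second CETP probe gave the same order of arrays (r = 0.97 in both sets). Among the 259 genes ABCG1, a cholesterol exporter, was most like CETP (r = 0.84 and 0.78). STMN2, a microtubule regulator known from neurons, was 8.12, 9.79 and 14.19 in set A and 6.03, 8.93 and 12.58 in set B, with a second probe at r = 0.98 in both sets. COMP, a cartilage matrix protein gene, was 4.50, 6.43 and 9.97 in set A and 4.49, 4.79 and 9.40 in set B. COMP was near the floor on most arrays of set B. SFRP2, a secreted Wnt modulator, was most like COMP among the 259 genes (r = 0.94 and 0.68). ACTG2, a smooth muscle actin gene, followed MYH11, the smooth muscle myosin (r = 0.75 and 0.91). HLA-G, a class I MHC gene, was 5.79, 9.32 and 11.64 in set A and 6.33, 8.59 and 10.71 in set B. MHC genes have many near-identical copies in macaques, so which of them this human probe reads is uncertain.

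The 15 most variable genes of each set shared 4 members, LPL, TCHH, CETP and HSBP1. MMP7, a matrix metalloprotease gene, was 5.30, 9.52 and 12.24 in set A (SD 2.66) and 4.46, 5.26 and 8.15 in set B (SD 1.32), where it was detected on 8 of 16 arrays. In set B the leading gene was ITIH1, an inter-alpha-trypsin inhibitor heavy chain, at 5.01, 8.11 and 12.16 (SD 2.51). ELOVL6, the elongase of newly made fatty acids, followed with 6.85, 11.27 and 14.13 (SD 2.39), against 8.85, 11.79 and 12.72 in set A. VEGFB, an endothelial growth factor gene, was at or below 5.13 on HFS replicates 7, 8 and 9 and at or above 8.92 on the other 21 arrays. A second VEGFB probe had r = 0.57 with the main probe in set A and -0.10 in set B. A further VEGFB probe (r = 0.45 and 0.30) was detected on only 2 arrays and lay near the floor, at 4.46 to 5.46.

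MYL1, a light chain of fast skeletal muscle myosin, had an SD of 2.16 in set B and 0.29 in set A. It was 8.09 on HFS replicate 9, 8.94 on HFS replicate 5, 10.30 on Resv replicate 5 and 10.91 on HFS replicate 8, and at or below 6.03 on the other 20 arrays. TNNI2, the fast muscle troponin I gene, was highest on the same 4 arrays, at 7.18 to 10.26, and at or below 6.43 elsewhere. Of 15 skeletal muscle markers 3 were measured, and 0 of them were in the top of set A and 3 in that of set B.

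Genes that varied together were found among the 259 shared variable genes. Of 33411 pairs, 164 had r over 0.8 in both sets, against 1334 in set A and 306 in set B taken singly, and 0 pairs were below -0.8 in both. Of the 164 pairs 158 joined 66 genes into 6 groups of at least 4 genes. A gene joined a group by a single such pair with any member, so other pairs inside a group could lie below the threshold. The pairs over it were 101 of 276 in the largest group and 3 of 6 in the groups of 4 genes. The threshold and the descriptive names were chosen after the values were seen, and the groups are a description with no test. Over all pairs of the 10500 genes the median r was 0.00 in both sets.

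The largest group held 24 genes and is called the CYBB group here. Of these TYROBP alone is on the list of macrophage markers. Members known from macrophages and other myeloid cells were CYBB of the phagocyte oxidase, LYZ, the lysosomal genes LIPA and LGMN, the integrin ITGAX, the chitinase CHIT1, SPP1, which encodes osteopontin, and TYROBP, an adaptor of myeloid receptors, while others such as MLPH, RARRES1 and GDF15 are not specific to these cells. Pairs of its members correlated at a mean r of 0.87 in set A and 0.75 in set B. The mean level over the group was 6.46, 7.33 and 9.36 (lowest, median and highest) in set A and 5.94, 6.86 and 9.24 in set B. SD replicate 2 was highest in set A and HFS replicate 10 in set B, and without each of them the mean r was 0.78 and 0.67. SPP1 alone ranged from 5.92 to 10.20 in set A and from 4.78 to 10.05 in set B. The group mean had r = -0.01 with the number of detected probes in set A and -0.03 in set B.

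The FASN group held FASN itself, ACLY, which supplies cytosolic acetyl-CoA, ELOVL6, and ADCY10, the soluble adenylyl cyclase. Its pairs correlated at a mean r of 0.78 in set A and 0.83 in set B, and ACLY was in all 3 pairs over the threshold. The group mean was 8.60, 10.41 and 11.40 in set A and 8.40, 10.24 and 12.42 in set B. It ran opposite to the CYBB group, at r = -0.81 (n = 8) and -0.62 (n = 16), and the latter was the strongest negative correlation of 2 groups in set B. In set A the FASN group also ran opposite to the erythroid, IGF2 and CRYAB groups described below (r = -0.85, -0.79 and -0.71), which in set B had r = 0.09, -0.26 and 0.32 with it. The arrays at its low end in set B were SD replicate 4 at 8.40, HFS replicate 10 at 8.93, Resv replicate 7 at 8.97 and HFS replicate 5 at 9.02. The high end held HFS replicates 6 and 4, at 12.42 and 12.39, SD replicate 3 and Resv replicate 9.

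A group of 13 genes, called the CRYAB group here, held CRYAB, a small heat shock protein, and HSPB8. Other members were the oxytocin receptor OXTR, the natriuretic peptide clearance receptor NPR3, the Wnt antagonist FRZB, UCHL1 and AKR1B10. UCHL1 was in 7 of the pairs over the threshold and CRYAB in 4. The group mean was 7.65, 10.15 and 10.64 in set A and 6.93, 8.35 and 10.19 in set B, and its mean r was 0.77 and 0.73. AKR1B10 and AKR1B15, both members, are near-identical copies and may share probe signal. A further 13 genes held IGF2 and its neighbour H19, the fibroblast and progenitor surface genes THY1 and PI16, the collagen gene COL6A2 and PCOLCE, an enhancer of procollagen processing (mean r 0.77 and 0.70). That mean ranged from 5.78 to 8.06 in set A and from 6.01 to 9.57 in set B, highest in HFS replicate 5 and Resv replicates 7 and 9. It correlated with the number of detected probes at r = 0.47 and 0.42, and the part of this in the group was not tested. The CRYAB and IGF2 groups ran together in set A (r = 0.66) and opposite in set B (r = -0.49).

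The erythroid group held the haemoglobin genes HBD and HBM, the haem synthesis enzyme ALAS2 and the globin chaperone AHSP (mean r 0.84 and 0.83). Its mean was 6.57, 7.46 and 9.62 in set A and 5.69, 6.95 and 9.66 in set B, highest in HFS replicates 1 and 9. The last group held 8 genes of hair and skin, with the hair keratin KRT85, trichohyalin (TCHH) and keratin-associated proteins. It rested on 3 arrays, Resv replicate 4 at 11.48, Resv replicate 1 at 8.40 and Resv replicate 7 at 7.35, with the others below 6. Without these 3 arrays its mean r was 0.00 in set A and 0.05 in set B, against 0.82 and 0.85 with them. All 3 animals were later assigned to Resv.

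The 6 group means overlapped between the later diets. Centred within sets, the CYBB group mean was -1.09, 0.29 and 1.82 in SD, -1.01, -0.17 and 2.21 in HFS and -1.08, -0.36 and 0.99 in Resv. The FASN group mean was -2.10, -0.19 and 1.54 in SD, -1.64, -0.10 and 1.93 in HFS and -1.53, 0.00 and 1.52 in Resv. The erythroid mean, with the widest separation of medians of the 6, was -1.06, -0.51 and 0.52 in SD, -0.39, 0.66 and 2.42 in HFS and -1.55, -0.74 and 1.896 in Resv.

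**Figure D2:**
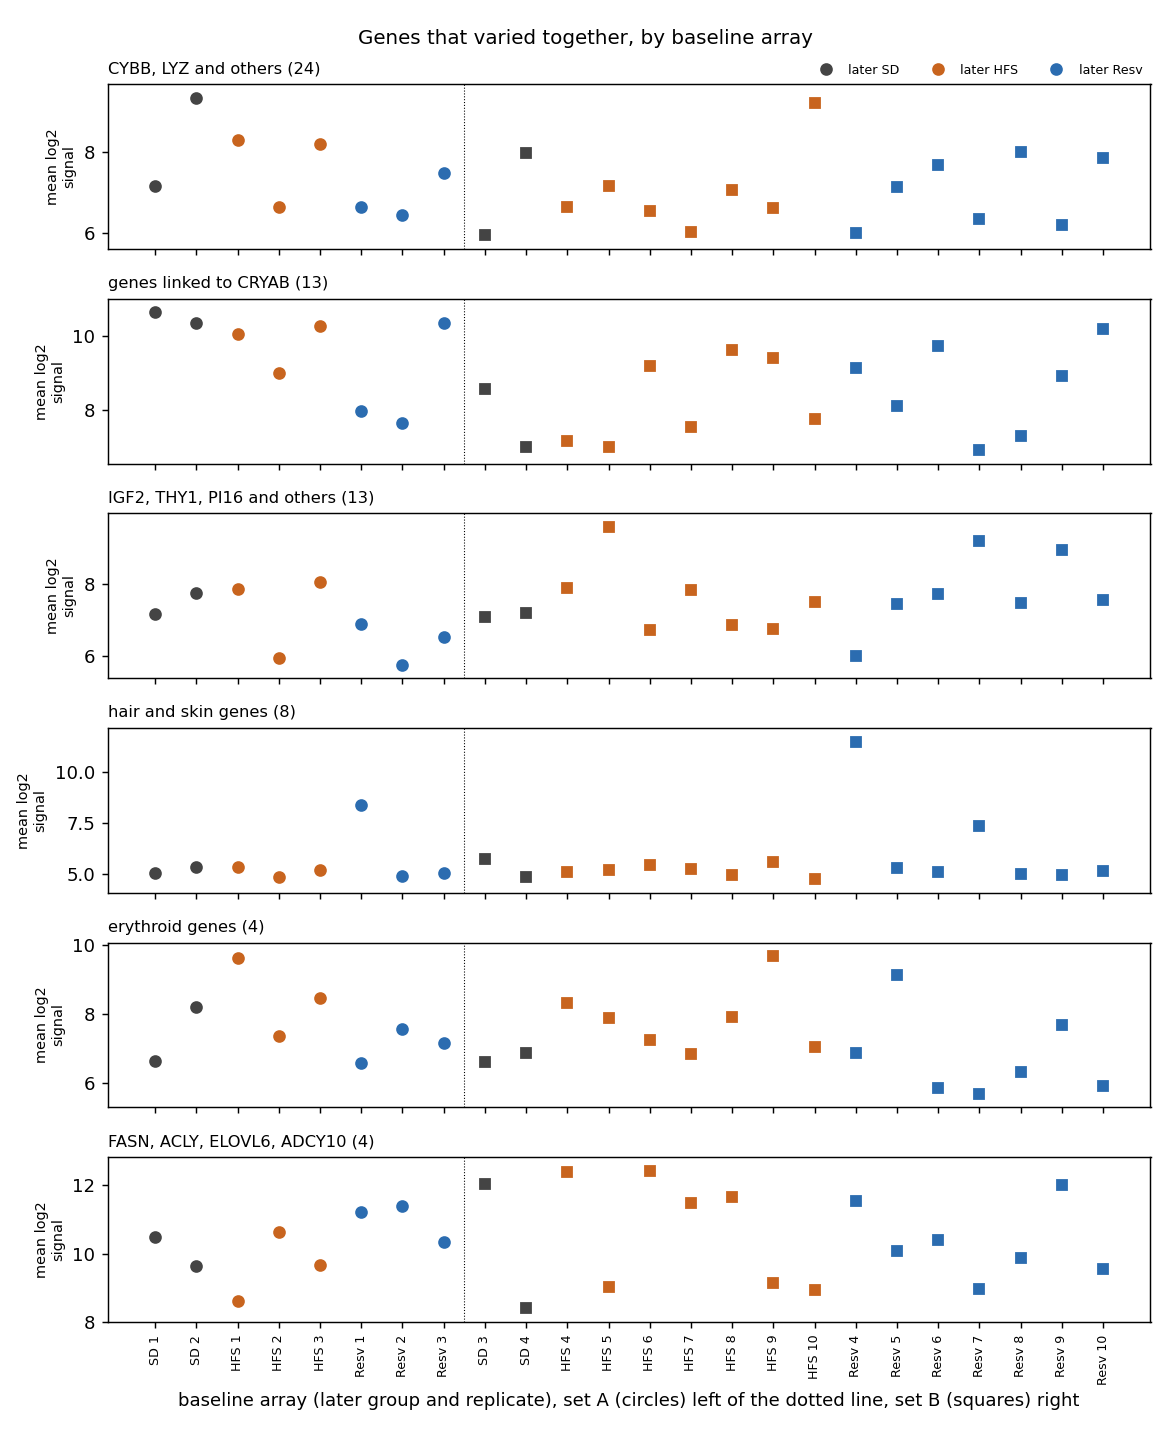
Mean log2 signal of the members of 6 co-varying groups (y axis) on each of the 24 baseline arrays (x axis), set A as circles left of the dotted line and set B as squares right of it, coloured by later diet. The mean of the CYBB group is 9.36 on SD replicate 2 and 9.24 on HFS replicate 10, and the hair and skin mean is above 7 on 3 Resv arrays only.

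Lists of genes chosen by function gave a second view of the same arrays. Of 37 lists 11 had a mean pairwise r over 0.2 in both sets. The macrophage list reached 0.27 in set A and 0.53 in set B, fatty acid synthesis 0.35 and 0.44, erythroid 0.51 and 0.40, the respiratory chain 0.31 and 0.43, fibroblast and progenitor 0.29 and 0.41, cell cycle 0.50 and 0.31, and matrix 0.24 and 0.31. Of 15 measured fatty acid synthesis genes 7 were in the top 5% of both sets, and of 14 macrophage genes 4 were, against 2.47% of all genes. These 2 lists were not alone in this. Of 6 erythroid genes 3 were there, of 13 adipocyte genes 3 and of 29 matrix genes 4, but of 18 respiratory chain genes 0. Not all functions moved together: adipocyte markers had a mean r of 0.04 and 0.07, circadian clock genes 0.02 and -0.02, and genes of hypoxia and glycolysis 0.00 in both sets. MHC class II genes had 0.15 and 0.19.

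A second approach took a representative gene for each of 14 functions and tested every other gene for a slope on it across the 24 arrays, with brightness set as a covariate (limma, Benjamini-Hochberg adjusted p under 0.05). A slope is the log2 difference per log2 unit of the representative gene. Calls came up for 10 representatives. For IFI44L (interferon response), TNNT3 (muscle), FKBP5 (glucocorticoid target) and CD74 (MHC class II) limma called 0 genes, with 623, 1006, 591 and 1126 genes at an unadjusted p under 0.05.

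FASN ranged from 9.72 to 12.44 in set A and from 9.92 to 13.50 in set B. With FASN 66 genes rose (0.629% of 10499 tested) and 118 fell (1.12%). ACLY rose most clearly, with a slope of 1.12 ± 0.13 (SE, n = 24, limma adjusted p = 0.000104), followed by the elongase ELOVL6 at 1.53, malic enzyme ME1 at 0.88, the desaturase SCD at 0.97, DGAT2, which makes triglyceride, at 0.70, and the lipogenic regulator THRSP at 0.78. These are 6 of the 14 other fatty acid synthesis genes, and the slopes of all 14 were above 0, with a median of 0.73 against -0.01 for all genes. PDHA1 of pyruvate dehydrogenase (0.38) and the sterol enzyme NSDHL (0.36) were also called. Of 18 respiratory chain genes UQCRC2 and COX5A rose, at 0.24 and 0.26. Adipocyte markers were not called in either direction (0 of 13), and for LPL the slope was -0.04 ± 0.46.

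The genes that fell with FASN included several known from macrophages and other leukocytes. Among them were HK3, the hexokinase of myeloid cells, at -0.78, CD84 at -0.69, STXBP2, a granule fusion factor, at -0.66, WAS, the actin regulator of blood cells, at -0.51, and the platelet-activating factor receptor PTAFR at -0.49. MYOC, which is not known as a leukocyte gene, fell at -0.53. Of 14 macrophage markers 5 fell (VSIG4, C1QC, CD68, TYROBP and C1QB, at -0.59 to -0.76) and 0 rose, with a median slope of -0.49. The number of genes called moved with single arrays. It was 303 without HFS replicate 9, 70 without HFS replicate 10, 85 without Resv replicate 4, 90 without SD replicate 3, 95 without HFS replicate 5, 98 without HFS replicate 6 and 104 without the 3 arrays high in KRT85. Of the genes called, 35.9% were higher with FASN, a share that became 67.9% under median scaling and 18.5% with the deposited z scores. Of 71 genes called in set B alone 62 (87.3%) had the same sign in set A, against 55.8% of all genes, and set A alone called 0.

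**Figure D3:**
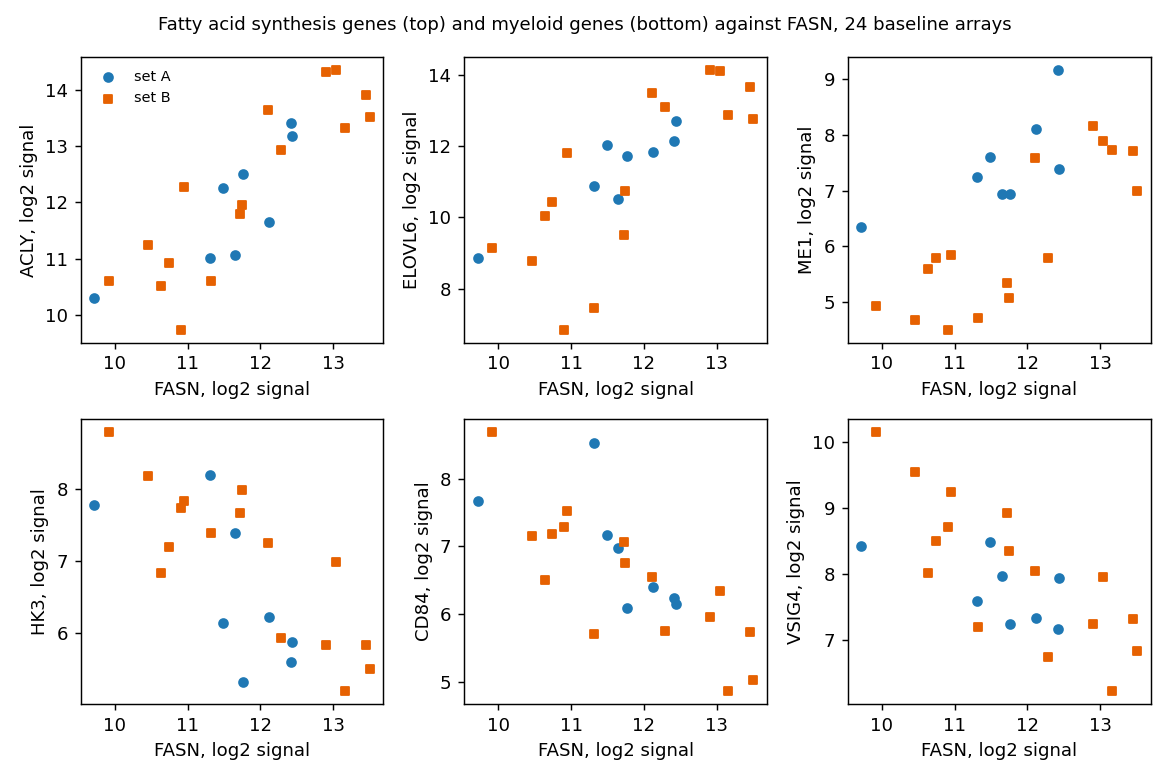
Log2 signals of 6 genes on the y axes against FASN on the x axes for the 24 baseline arrays. The genes are 3 of fatty acid synthesis (ACLY, ELOVL6, ME1) and 3 known from macrophages and other leukocytes (HK3, CD84, VSIG4). Set A is shown as blue circles and set B as orange squares. Arrays with high FASN are high in ACLY and low in HK3 in both sets.

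SQLE, the squalene epoxidase of cholesterol synthesis, varied mostly in set B (SD 0.39 in set A and 1.09 in set B). With SQLE 308 genes rose (2.93% of genes) and 346 fell (3.3%). Of these calls 47.1% were higher, a share that was 98.8% under median scaling and 68.2% with the deposited z scores. HMGCS1, which makes the first committed sterol precursor, rose with a slope of 0.82 ± 0.10 (SE, n = 24, limma adjusted p = 0.000295), and MSMO1, INSIG1, LSS and DHCR7 rose at 0.34 to 0.87, which makes 5 of the 9 other cholesterol genes. Of 15 fatty acid synthesis genes 11 rose, ME1 at 1.03 and ELOVL6 at 1.64 among them. PCK1, the gluconeogenic and glyceroneogenic enzyme, fell by 1.22, the plasma peroxidase GPX3 by 0.87 and CEACAM1 by 0.70. The calls rested on set B: of 591 genes called there 280 (47.4%) had the same sign in set A, against 50.2% of all genes, and in set A alone the HMGCS1 slope was -0.0059. The number of calls was 654 in all, 137 without the 4 arrays high in MYL1, 314 without the 3 high in KRT85, and 277, 317, 329 and 420 without HFS replicate 8, Resv replicate 7, SD replicate 4 and HFS replicate 6.

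CD163, the haemoglobin scavenger receptor of tissue macrophages, was between 5.84 on Resv replicate 4 and 9.01 on Resv replicate 6. With CD163 63 genes rose (0.6%) and 5 fell (0.0476%). Among the risers were VSIG4, a complement receptor (0.92 ± 0.13 SE, n = 24, limma adjusted p = 0.000843), ALOX5AP of leukotriene synthesis (1.004), the folate receptor FOLR2 (0.98), the anaphylatoxin receptor C5AR1 (0.85), the RNA sensor TLR8 (0.69) and the 3 C1q chains C1QA, C1QB and C1QC (0.90 to 1.08). In all, 9 of 13 other macrophage markers rose and 0 fell. Of 57 genes called in set B alone 54 (94.7%) had the same sign in set A, against 54.99% of all genes. The 68 calls became 7 without the 3 arrays high in KRT85, which include the 2 lowest CD163 values, 39 without Resv replicate 4 and 41 without HFS replicate 10.

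COL1A1, a chain of type I collagen, was 10.38 to 12.17 in set A and 10.77 to 14.63 in set B. With COL1A1 74 genes rose (0.705%) and 8 fell (0.0762%). COL1A2, the partner chain, rose at 0.55 ± 0.06 (SE, n = 24, limma adjusted p = 1.06e-05), and COL5A2, COL5A1, COL3A1, CCN2, PCOLCE, BGN, LUM, TIMP1 and COL6A3 rose at 0.32 to 0.78. These are 10 of the 28 other matrix genes measured. C1QTNF6 rose at 1.22, THY1 at 0.72, PIK3IP1 at 0.58 and HMMR, a hyaluronan receptor, at 0.53. The 82 calls became 27 without Resv replicate 9, which had the highest COL1A1, 52 without HFS replicate 1, 150 without HFS replicate 7 and 50 without the 4 arrays high in MYL1. The share of calls that were higher, 90.2%, was 74.3% with the deposited z scores.

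HBA1, an alpha globin gene, was 12.42 to 14.80 in set A and 12.86 to 14.79 in set B. With HBA1 4 genes rose (0.0381%) and 0 fell (0%, with 457 genes at an unadjusted p under 0.05 in either direction). They were HBD at 1.75, ALAS2 at 1.61, AHSP at 1.01 and HBA2 at 0.39, which are 4 of 5 other erythroid markers. HBA2 is a near-identical copy of HBA1, and HBB, at the top of the scale, was not called (slope -0.08). All calls were higher, and with the deposited z scores 33.3% were.

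FOS, an immediate early transcription factor that cells induce rapidly after a stimulus, was 9.65 to 12.48 in set A and 8.45 to 12.00 in set B. With FOS 8 genes rose (0.0762%) and 4 fell (0.0381%). The risers included the other immediate early genes ZFP36 (0.60), EGR1 (0.54), FOSB (0.75) and JUN (0.57), 4 of 17 on that list, at limma adjusted p = 0.0404 to 0.0418. RBM3, a cold-inducible RNA-binding protein gene, fell at -0.39, NREP at -0.51, PLCD4 at -0.58 and the peroxisomal thiolase ACAA1 at -0.23, and the last was 0.07 under median scaling. Without SD replicate 2 limma called 0 genes, and 1 was called with the number of detected probes as a covariate. The higher share, 66.7%, was 99.5% under median scaling and 83.3% with the deposited z scores.

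The other 4 representatives varied little themselves, with an SD within sets of 0.345 or less. Their counts are given for fewer settings than those above. Genes varied with KRT14 (713, 6.79% of genes), PER3 (55, 0.524%), LEP (215, 2.05%) and RPL3 (602, 5.73%). Set A alone called 0 genes for each of them. PER3 also had 0 in set B alone and with the number of detected probes as a covariate, where KRT14, LEP and RPL3 kept calls. Of 3 other keratinocyte and skin markers 0 were called with KRT14. Of 12 other clock genes 0 were called with PER3, and of 12 other adipocyte markers 0 with LEP. Of 25 other ribosomal genes 1 rose and 1 fell with RPL3. These counts therefore do not show that the named functions varied. LEP was 8.83 to 10.38 over the 24 arrays.

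The later diets gave the null comparison. Between Resv and HFS limma called 0 of 10500 genes (0%), between HFS and SD 0 (0%), between Resv and SD 0 (0%), and over all 3 groups 0 (0%). A difference of the Resv and HFS contrast between the sets was also called for 0 genes (0%). At an unadjusted p under 0.05 there were 299, 273, 223, 244 and 337 genes, against 525 that a uniform distribution of p gives. The smallest adjusted p between Resv and HFS was 0.446, for PHAX, a nuclear export adaptor for small RNAs, at 8.82 ± 0.25 (SD, n = 10) in Resv and 8.26 ± 0.34 (n = 10) in HFS. The PHAX difference was 0.56 with a 95% interval of 0.33 to 0.79, and the arrays of the 2 groups overlapped.

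The size of difference that could be seen varied by gene. The 95% interval of the difference lay within 1 log2 unit of 0 for 95% of genes between Resv and HFS, 87.5% between HFS and SD and 87.8% between Resv and SD. The variable genes had wider intervals and larger differences. They were picked for large SDs on these same arrays, so larger differences between groups follow in part from the choice. Over the 259 genes of both tops the median absolute difference was 0.31, 0.36 and 0.39 in the 3 contrasts, against 0.09, 0.12 and 0.12 over all genes. At an unadjusted p under 0.05 they numbered 20 between Resv and HFS (7.72% against 2.85% of all genes), 6 between HFS and SD (2.32% against 2.6%) and 7 between Resv and SD (2.7% against 2.12%).

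Large differences between untreated groups existed without passing the test. HSBP1 was 5.43 ± 1.43 (SD, n = 10) in Resv and 8.06 ± 2.01 (n = 10) in HFS, a difference of -2.62 with a 95% interval of -4.19 to -1.05 (limma adjusted p = 1), and the groups overlapped. HBA1 differed by -0.89 and UCP2, a mitochondrial uncoupling protein gene, by -0.93 between Resv and HFS, and IMP3, a nucleolar ribosome assembly factor, by 2.23 between HFS and SD (each limma adjusted p = 1). LPL differed by -1.16 with an interval of -3.23 to 0.91, and FASN by 0.50 with an interval of -0.43 to 1.42. The other genes with the smallest unadjusted p between Resv and HFS were FMC1 (0.36) and MYO3B (0.42), higher in Resv, and LCMT2 (-0.39) and AURKB (-0.71), higher in HFS. The cytochrome gene CYP4F12 was 1.33 higher in HFS and 1.28 higher in Resv than in SD, and ERVMER34-1 1.27 and 1.03 higher, but both comparisons share the 4 SD arrays.

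**Figure D4:**
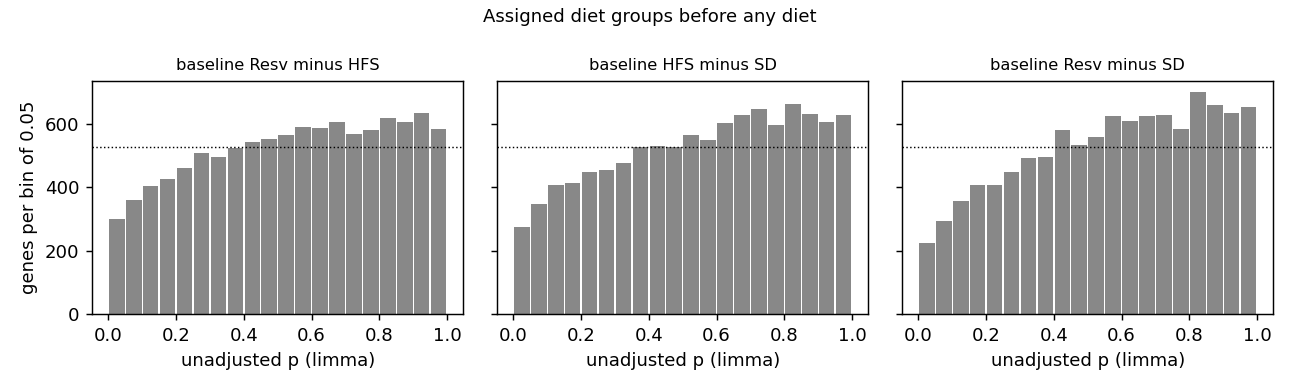
Number of genes (y axis) in each bin of 0.05 of unadjusted p (x axis) for the 3 pairwise comparisons of assigned groups at baseline, with a dotted line at 525 genes, the height of a uniform distribution. The lowest bin lies below the line in all 3 panels, at 299, 273 and 223 genes.

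Whether differences between animals were found again in a second biopsy was examined in the 11 animals with a second subcutaneous biopsy 24 months into the diets. Of their baseline arrays 8 were in set A and 3 in set B, and all later arrays were in set A. With group by time and set in the fit, limma called 469 of 12556 genes as differing between animals over both times (3.74%). Of 258 tested genes of both tops 104 (40.3%) were called, although the tops used the same baseline arrays. Of the lists chosen by function 1 of 14 macrophage genes, 2 of 16 fatty acid synthesis genes and 0 of 7 erythroid genes were called. Other lists had larger shares, such as 3 of 7 acute phase, 3 of 8 metallothionein, 4 of 12 MHC class I and 3 of 10 MHC class II genes. Of 18 cell cycle and 12 endothelial genes 0 were called. Of the 6 co-varying groups, which were picked for spread on the same baseline arrays, 6 of 24 genes of the CYBB group were called, 3 of 13 of the CRYAB group, 2 of 13 of the IGF2 group, 0 of 7 hair and skin genes, 0 of 4 erythroid and 0 of 4 of the FASN group.

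For LPL, HSBP1, APH1B, NDUFC1 and EEF2K the animals that were low at baseline were also below all the others at 24 months, although some later values lay inside the baseline gap, such as 6 of 8 low HSBP1 animals at 5.54 to 6.56. LPL was 5.11 at baseline and 4.90 at 24 months in the animal of Resv replicate 2, and 11.37 to 13.81 and 11.35 to 12.67 in the other 10 (limma adjusted p = 2.78e-07, the smallest of all genes). HSBP1 was high at both times in the animals of SD replicate 1 (9.18 and 9.86), HFS replicate 3 (9.14 and 9.74) and HFS replicate 4 (9.60 and 9.60). The other 8 lay at 4.77 to 5.40 and then at 4.80 to 6.56. APH1B was low at both times in the animals of SD replicate 2 (4.61 and 4.54), Resv replicate 3 (4.64 and 4.70) and HFS replicate 4 (4.43 and 4.41), and 7.58 to 8.44 and 7.61 to 9.33 in the others.

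NDUFC1 was detectable in 5 animals, at 6.60 to 8.45 at baseline and 6.35 to 7.66 at 24 months, and the other 6 lay at 4.33 to 4.42 and 4.36 to 4.55. EEF2K was low only in the animal of SD replicate 2, at 4.77 and 4.76. Besides LPL, the 10 genes with the smallest p included C1orf115, VEGFB, MRPS28, CTSV, NELL2 and HLA-G. CTSV, a lysosomal cathepsin gene, was 8.96 and 10.16 in the animal of Resv replicate 2 and at most 5.39 in the others. The number of called genes was 276 without the animal of SD replicate 2 and 312 without that of Resv replicate 2.

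High levels of hair and muscle genes were not found again, but each of these rests on a single animal. The other animals high in KRT85 or MYL1 had no subcutaneous array at 24 months. KRT85 went from 8.20 to 4.66 in the animal of Resv replicate 1, and MYL1 from 10.91 to 4.68 in that of HFS replicate 8. The FASN group mean was lower at 24 months in 11 of 11 animals, as from 12.39 to 9.15 in that of HFS replicate 4. It was also lower in all 8 of these whose arrays were both in set A, as from 11.40 to 8.42 in that of Resv replicate 2. Time and diet change together in these pairs and cannot be told apart.

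**Figure D5:**
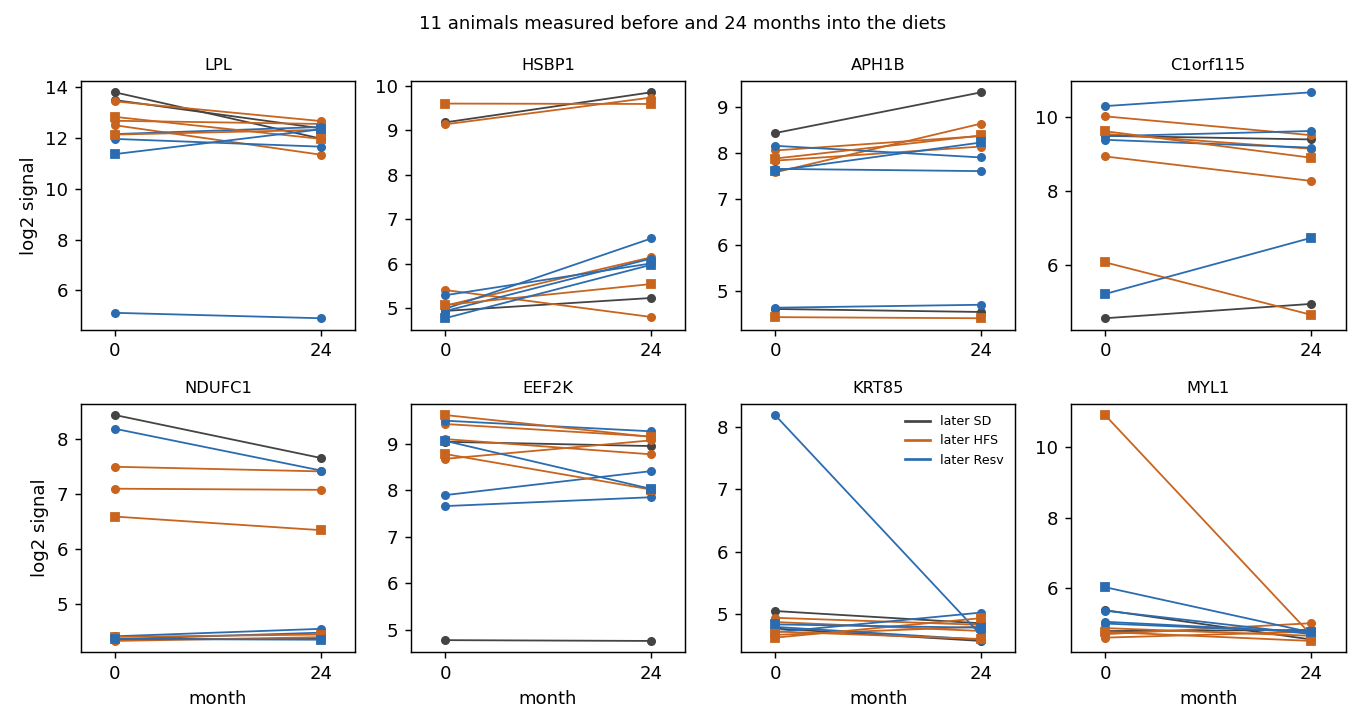
Log2 signal (y axis) of 8 genes at month 0 and month 24 (x axis) in 11 animals, each line an animal coloured by diet, with circles for animals whose baseline array was in set A and squares for set B. For LPL, HSBP1, APH1B, NDUFC1 and EEF2K the low and the high animals keep separate ranges, while the single high baseline values of KRT85 and MYL1 are low at 24 months.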

How the data were processed

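RNA of fat biopsies was extracted with Trizol and lipid tissue columns and hybridised to human HT-12 V4 bead arrays, per the labels' protocols. The authors deposited an intensity (average bead signal, linear and not scaled between arrays) for 47323 probes per array, which the submitters' processing notes credit to GenomeStudio 1.9.0. Per the file headers, each intensity comes with a detection p-value. A second deposited table holds a score that equals, within 5e-10, the z of the log intensity within an array, and how the authors computed it is not stated in the sources used here.

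Of the probes 92 were empty and 47231 were used, of which the platform annotation gave 1 symbol for 30113, several for 8 and none for 17110. Intensities of all 45 arrays were background corrected and quantile normalized with neqc of limma 3.58.1 (R 4.3.3, offset 16) and are on a log2 scale. A probe was kept when its detection p was under 0.05 on at least as many arrays as not in at least 1 group, which left 13229 probes. For each of 10500 genes the probe with the highest mean was used. The number of arrays limits the precision.

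Tests used limma's lmFit and eBayes, with trend set, and 2-sided Benjamini-Hochberg adjusted p under 0.05 over all genes. Group contrasts had brightness set as a covariate (20 residual degrees of freedom), and indicator fits replaced the group by a gene's level. The animal test was an F-test over 11 animals with 2 arrays each (7 degrees of freedom), where animals were matched by the names of the deposited columns. Arrays are separate animals.

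The members, the gene lists, the representative genes and the tests were chosen with earlier results of these data known. Named genes are the 20 brightest, the most variable in each set and in both, those with the smallest p in each fit, list members with the largest spread or smallest p, and a fixed set. Same-numbered arrays of different groups correlated in their deviations at -0.207 to 0.446, with 4 of 18 pairs above 0.1, and the labels state no pairing. Alternatives were other normalizations, filters, thresholds, covariates, probe choices, array weights, either brightness set alone and arrays left out.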

Additional observations from a re-analysis of the deposited data

Results flagged for a closer look

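Each of 46 values was examined in each assigned group with 4 or 10 arrays for a single array far from the rest, by Dixon's criterion at the 95% level, in 138 combinations. In groups of normal values not chosen beforehand the criterion marks about 1 in 20. Many of the 46 values were chosen for large spread on these same arrays, so that rate does not apply. In all, 15 combinations were marked. Several come from the arrays that were high for hair or muscle genes: KRT85 was 12.77 (next highest 8.70) and KRTAP11-1 13.93 (next 7.92) on Resv replicate 4, where the hair and skin group mean was 11.48 (next 8.40). MYL1 was 10.30 (next 6.03) and TNNI2 8.85 (next 6.43) on Resv replicate 5.

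Single animals also stood apart within their later group for genes with separate levels. For each of these genes arrays of other later groups lay at the same level. LPL was 4.78 on HFS replicate 9 (next lowest 10.64), HSBP1 9.47 on Resv replicate 5 (next highest 5.28), APH1B 4.43 on HFS replicate 4 (next lowest 7.58) and EEF2K 4.77 on SD replicate 2 (next lowest 9.04).

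On Resv replicate 9 the collagen gene COL1A1 was 14.63 (next highest 11.83) and C1QTNF6 was 10.80 (next 6.21). PCK1 was 9.77 on SD replicate 4 (next highest 5.67), and HBA1 was 13.41 on HFS replicate 2 (next lowest 14.37). On SD replicate 2 the mean of the IGF2 group was 7.75 (next highest 7.19) and that of the erythroid group 8.21 (next 6.86).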

How the results depend on the processing

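The comparisons of assigned groups stayed at 0 calls under nearly all alternatives. Exceptions were 1 gene without the filter on dim probes in HFS minus SD, Resv minus SD and the 3-group test (ZNF665 each time), and 1 in HFS minus SD in set A only (AAMDC). With the replicate number as a block, which does not pair animals, 0 genes were called in all 4. Leaving out 1 array gave 0 in all 4 contrasts, and 0 to 4 for the difference between sets (4 without HFS replicate 2: STING1, SH3BGRL3, GNAI2 and TBCD). Leave-one-out ranges of genes called were 70 to 303 for FASN, 277 to 724 for SQLE, 39 to 77 for CD163, 27 to 150 for COL1A1, 3 to 6 for HBA1 and 0 to 56 for FOS, and 8 to 11 representatives had calls. They were 245 to 261 for the shared variable genes, 6 to 13 for lists varying together, 129 to 182 for gene pairs and 276 to 596 for animals.

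Genes called under other settings were as follows. Set A only gave 0 for FASN, SQLE, CD163, COL1A1, HBA1 and FOS, and 1 representative with any call, and set B only gave 71 for FASN, 41 for COL1A1, 2 for HBA1 and 0 for FOS. Median scaling gave 53 for FASN, 326 for SQLE, 4686 for CD163, 6208 for FOS and 2 for HBA1, and 32 lists varying together. It shifted the median gene by -0.165 in Resv minus HFS and 0.259 in HFS minus SD, and the median slope by 0.213 for CD163, 0.193 for FOS and 0.1204 for HBA1, so its counts include that shift. The z scores gave 432 for FASN, 107 for SQLE, 490 for HBA1 and 6 for FOS. No background correction gave 435 for SQLE. No filter gave 106 for FASN, 297 for SQLE and 0 for FOS. An adjusted p under 0.1 gave 358 for FASN, 1307 for SQLE, 167 for COL1A1 and 60 for FOS. No set term gave 116 for FASN, 218 for COL1A1, 2 for HBA1 and 0 for FOS. Array weights and the number of detected probes each gave 1 for FOS. CD163 gave 42 for genes detected on all 24 arrays and 45 with the mean of a gene's probes. Without the 3 arrays high in KRT85 FASN gave 104, SQLE 314, CD163 7 and FOS 0, and without the 4 high in MYL1 SQLE gave 137, COL1A1 50 and FOS 0.

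The shared variable genes numbered 551 at the upper 10%, 167 by median absolute deviation and 150 when detected on all arrays, and gene pairs 389 at r over 0.7 and 36 at 0.9. Of 2821 recomputed values of named genes 2405 kept direction and side of the threshold, 412 lost significance and 4 reversed: ACAA1 with FOS at 0.0714 under median scaling, CLEC4GP1 with CD163 at 0.0440 with the mean of probes, and HMGCS1 at -0.0059 and ELMOD3 at -0.26 with SQLE in set A. The cause was not tested in any of these. The leave-one-out settings, those without the KRT85 or MYL1 arrays and the other settings for lists and pairs were added after the data were seen. Taking 2 alike animal names as 1 was not run, since neither changes a subcutaneous pair. Probes near background bound what the dim genes can show.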
